A study of Mus musculus with 16 samples.

Results

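Natural killer (NK) cells sorted from the lungs were compared with NK cells sorted from the tumour-draining axillary lymph node in mice given diphtheria toxin (DT). The comparison holds 8 of the 16 samples of the series, 4 of lung and 4 of lymph node, chosen by the tissue and treatment in their labels, and it covers all genes of the count table. All mice were FVB/N with the genotype Cdh1F/F;Trp53F/F;Foxp3GFP-DTR, so Foxp3+ cells bear the DT receptor, and all carried an orthotopically transplanted KEP mammary tumour of 100 mm2. DT was given at 25 ug at T=0 and T=7, and the other 8 samples, from the same 2 tissues, came from mice given PBS at the same times. The labels do not state the unit of T, the mice's age or sex, or whether a lung and a lymph node came from the same mouse. NK cells were sorted as live CD45+ CD3- NKp46+ DX5+ cells, 5-10K cells per library, and sequenced as bulk Smart-seq2 libraries. The lungs, and not the lymph nodes, were digested with Liberase for 30 minutes at 37 °C and passed through erythrocyte lysis, so tissue and preparation cannot be told apart in any value below.

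NK cells are innate lymphocytes that kill stressed or transformed cells with perforin and granzymes and release interferon gamma. In the mouse they mature from a stage that keeps CD27, IL-7 receptor and TCF-1 to one with CD11b, KLRG1 and strong cytotoxic equipment, and lymph nodes hold more of the early stage than blood-rich organs such as the lung. Regulatory T cells, which Foxp3 defines, restrain NK cells in part by consuming IL-2, and the question of the comparison is which tissue differences persist when they are depleted.

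Total counts ran from 6646920 to 8952451 in the lymph node DT libraries and from 6982369 to 8317260 in the lung DT libraries. Levels are given as CPM, the read count scaled to the TMM-adjusted library size, differences as log2 fold change, lung minus lymph node, with its standard error (SE), and a gene is called when the adjusted p of edgeR's quasi-likelihood test is under 0.05. Ncr1, which encodes the sort marker NKp46, was at 5176 to 7917 CPM in lymph node and 2457 to 4382 CPM in lung, and Eomes, the NK lineage factor, at 137 to 209 CPM and 106 to 153 CPM. Of the CD3 genes, which the sort excludes as protein, Cd3e was at 6.82 to 22 CPM in lymph node and 0 to 9.76 CPM in lung, Cd3d at 106.9 to 258.9 CPM and 12.8 to 139 CPM, and Cd3g at 96.0 to 178 CPM and 27.1 to 217.5 CPM. Foxp3 was at no more than 1.19 CPM in any DT library and was not tested, and the sort excludes CD3+ cells, so these libraries give no check of the depletion. Mitochondrial genes took 1.24% to 4.93% of counts in the lymph node DT libraries and 3.11% to 4.40% in lung. Both DT libraries numbered 1 stood apart from the other 3 of their tissue, with Malat1 at 18220 CPM in lymph node and 17160 CPM in lung against group medians of 6524 and 8245 CPM. Nothing in the labels says that libraries of a group came from separate mice, and p-values then measure only the spread between these samples, which may be technical.

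With DT, 554 of 13940 tested genes were higher in lung (3.97% of those tested) and 387 were lower (2.78%). Among the named genes, those higher in lung with the smallest p were Cdkn1a, Tgif1, Sgk1, Coq10b, Ppp1r15a, Rgs2, Nr4a2 and Fosl2. The corresponding genes lower in lung were Il7r, Ltb, Cd160, Slamf6, Lta, Zfp882, Ifit1 and Xcl1. In 413 of the 554 (74.5%) and in 338 of the 387 (87.3%), the 4 lung libraries did not overlap the 4 lymph node libraries, beside 5.57% and 6.08% of all tested genes in the same directions. With PBS, in libraries of which none is shared with DT, 377 genes were higher in lung (2.7%) and 126 were lower (0.904%), a split of 75.0% higher that became 56.5% when libraries were scaled by total counts alone. With the library number as a block within each treatment, 701 genes were higher and 720 lower in lung with DT. The counts with DT were 308 higher and 224 lower without lymph node replicate 2, 276 and 195 without lymph node replicate 3, 359 and 304 without lymph node replicate 4, 851 and 703 without lung replicate 1, and 719 and 671 without both libraries numbered 1.

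Of the 941 genes called with DT, 334 were also called in the same direction with PBS, which is 35.5% of the DT calls and 66.4% of the 503 PBS calls. These shares depended on the fit: with each treatment fitted on its own 8 libraries, 204 genes were called alike, 63.4% of 322 DT calls and 14.3% of 1425 PBS calls, and limma-voom gave 56.2% of 1804 and 44.1% of 2296. Without both DT libraries numbered 1 they were 50.1% and 51.2%. These 334 comprised 258 genes higher and 76 lower in lung, and only Marf1 was called in opposite directions, at -1.37 ± 0.39 (SE) with DT and 1.47 with PBS; without both DT libraries numbered 1, the adjusted p of Marf1 with DT was 0.116 in edgeR. The remaining 606 were called with DT and not with PBS, yet 579 of them, or 95.5%, had the same sign with PBS, against 72.1% of all tested genes. Their median absolute log2 fold change was 2.72 with DT and 1.20 with PBS. Among the 168 genes called with PBS alone the medians were 0.94 with DT and 1.92 with PBS, and 158 had the same sign. In both sets the larger median is favoured by choosing genes called with that treatment alone. The difference between the 2 tissue differences was tested for each gene as an interaction, and 1 of 13940 genes passed (0.00717%), Zfp882. At an unadjusted p under 0.05 the interaction held 586 genes, 4.20% of all tested; limma-voom called 0 genes and DESeq2 called 1 higher and 18 lower. Apart from Zfp882, a gene called with 1 treatment alone is not shown to differ between treatments.

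**Figure D1:**
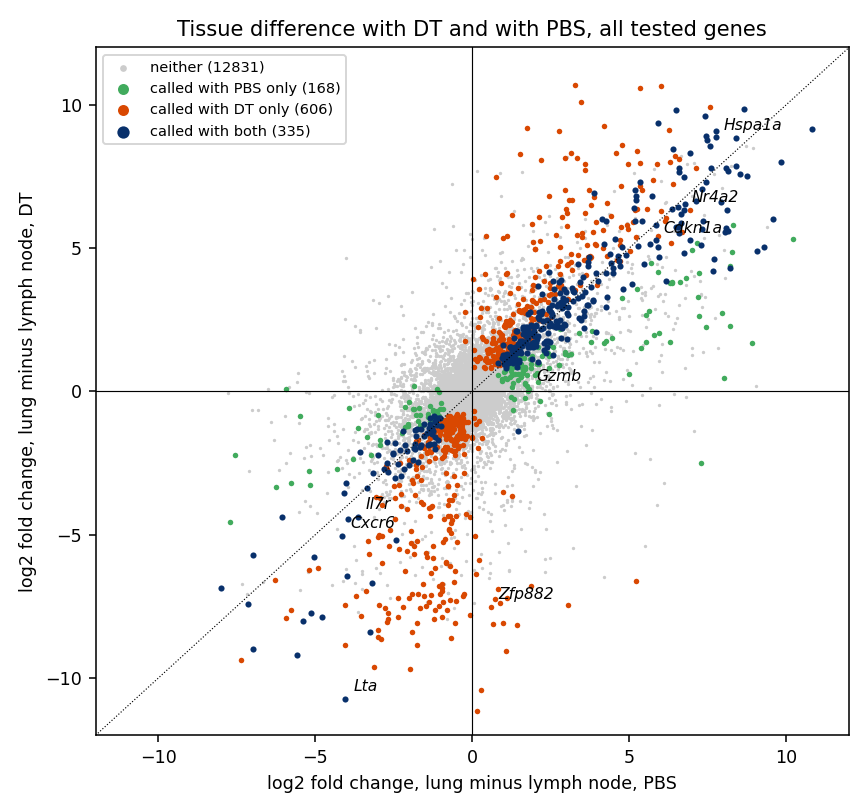
Log2 fold change between lung and lymph node NK cells with PBS (x axis) and with DT (y axis) for the 13940 tested genes, 1 point per gene, coloured by the treatment in which edgeR called it. The 335 genes called with both treatments include 334 with the same sign and Marf1 with opposite signs; 21 of them had an unadjusted interaction p under 0.05, Lta and Ifit1 among those far from the dotted line of equal change, and many genes called with DT alone lie below 0 on the y axis with small values on the x axis.

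Immediate early genes are transcribed within minutes of a stimulus or of stress and mostly encode transcription factors and signalling brakes. Of the 25 tested members of this list, 21 were called higher in lung with DT and 0 lower, against 3.97% of all tested genes, and 19 of the 21 were also called higher with PBS. The median of the 25 was 3.48 with DT and 3.59 with PBS, where all tested genes had medians of -0.04 and -0.01. Over all alternatives run, the count lay between 18 and 22, and it was 21 without both DT libraries numbered 1.

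Nr4a2 (ENSMUSG00000026826, chromosome 2, 57106830 to 57124003 in GRCm38), an orphan nuclear receptor, was at 43.2, 11.6, 7.10 and 18.2 CPM in lymph node replicates 1 to 4 with DT and at 3093, 1008, 1277 and 1025 CPM in the lung replicates. The lung and lymph node libraries lay far apart, and the difference was 6.33 ± 0.59 (SE; edgeR adjusted p = 5.6e-06), beside 6.75 with PBS. Nr4a1, its paralog induced by antigen receptor signals in lymphocytes, was at 7.88, 31.0, 27.8 and 33.0 CPM in lymph node and 329, 932, 1263 and 810.1 CPM in lung. Here too no library overlapped (5.06 ± 0.48, adjusted p = 7.0e-06 in edgeR), and the PBS difference was 5.27. Nr4a3, the last member of that receptor family, rose by 4.52 with DT from levels of 3.25 to 13.2 CPM. Fosl2, a subunit of AP-1, was at 34.3, 53.6, 58.4 and 43.5 CPM in lymph node against 359.8, 1167, 1006 and 820.1 CPM in lung, a difference of 4.14 ± 0.39. Ppp1r15a, which encodes GADD34 and restores translation after stress, differed by 4.30 ± 0.39, with 24.0 to 34.2 CPM in lymph node and 422 to 841 CPM in lung.

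The promoters of these genes are shown because the 3 Nr4a genes moved together and share a short sequence. The cyclic AMP response element TGACGTCA, bound by CREB and ATF factors, and its shorter core TGACG were searched on both strands in the 250 bases before each RefSeq start site (GRCm38.p6). Windows were found for 9481 of the 13940 tested genes. The core occurred in 15 of 26 windows of immediate early genes (57.7%), in 26.6% of the 12058 windows of tested genes and in 17.8% of all windows in the table. It was in 29.4% of windows of the genes higher in lung with DT and 24.8% of those lower, both near the share of tested genes. The whole element was in 4.02% of windows of the genes higher in lung with DT, 1.75% of those lower and 2.59% of those tested. Nr4a1, Nr4a2 and Nr4a3 each had 4 matches of the core, and 4 or more were found in 40 of the 12058 windows (0.332%), where overlapping matches within TGACGTCA count separately. The cut of 4 equals the count seen in these 3 genes, so this share is a description and not a test. Coq10b, which is not on the list of immediate early genes, also had 4 matches. Of the genes on that list, Fos had 2 and Fosl2 had 0. Capitals mark the core, on either strand, in the Nr4a windows and the whole element in Ppp1r15a; the genes to print were chosen after their values were seen, and a match is a description of letters and not a bound site.
Nr4a1, chr15:101266596-101266845, plus strand: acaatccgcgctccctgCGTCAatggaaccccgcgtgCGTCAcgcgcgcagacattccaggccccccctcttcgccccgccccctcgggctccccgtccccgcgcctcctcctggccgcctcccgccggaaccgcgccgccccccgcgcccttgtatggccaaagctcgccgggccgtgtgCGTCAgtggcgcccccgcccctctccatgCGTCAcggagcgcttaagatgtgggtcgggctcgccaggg
Nr4a2, chr2:57124004-57124253, minus strand: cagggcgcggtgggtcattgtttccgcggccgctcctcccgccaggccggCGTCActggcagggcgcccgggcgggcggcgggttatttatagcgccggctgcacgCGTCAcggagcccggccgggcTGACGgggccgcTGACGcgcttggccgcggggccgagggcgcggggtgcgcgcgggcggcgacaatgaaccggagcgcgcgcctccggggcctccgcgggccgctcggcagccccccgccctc
Ppp1r15a, chr7:45526269-45526518, minus strand: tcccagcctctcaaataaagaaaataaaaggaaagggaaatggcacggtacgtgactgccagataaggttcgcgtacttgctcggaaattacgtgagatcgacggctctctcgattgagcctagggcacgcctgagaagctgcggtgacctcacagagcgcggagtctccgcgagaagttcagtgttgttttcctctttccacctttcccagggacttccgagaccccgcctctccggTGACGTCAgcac

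Some genes of cyclic AMP signalling were higher in lung. Of 18 tested members, 5 were called higher with DT (among them Crem, Sik1, Pde4b and Per1), against 3.97% of all tested genes, and 0 lower; 13 did not pass, 3 of the 18 lay below 0, and DESeq2 and limma-voom each called 8 higher and 1 lower. The list had a median of 0.92 beside 1.06 with PBS. Crem, whose products bind the element above, was at 86.5, 57.2, 69.7 and 83.8 CPM in lymph node and 805, 799.7, 977 and 959 CPM in lung. All lung libraries lay above all lymph node libraries (3.57 ± 0.34, edgeR adjusted p = 7.3e-06), and the difference with PBS was 4.80. Sik1, a kinase that CREB induces and that feeds back on its coactivators, was at 1.21 to 4.81 CPM against 56.5 to 159 CPM (5.13 ± 0.52). Pde4b, a phosphodiesterase that degrades cyclic AMP, differed by 2.18 ± 0.23. Entpd1, the ectonucleotidase CD39, was at 44.9, 85.4, 87.7 and 202 CPM in lymph node and 141, 222, 181.9 and 253.6 CPM in lung with DT, groups that overlap (0.93 ± 0.36, adjusted p = 0.14 in edgeR), while it was called with PBS at 2.75.

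Other genes that rose in lung act on the cell cycle, on metabolism and on signalling. Cdkn1a (ENSMUSG00000023067, chromosome 17, 29090979 to 29100722), the cyclin-dependent kinase inhibitor p21, had the smallest p of all named genes, with 4.28, 15.6, 14.7 and 11.9 CPM in lymph node and 579, 441, 447.5 and 332 CPM in lung. No library overlapped, and the difference was 5.27 ± 0.37 (adjusted p = 6.3e-07 in edgeR) with DT and 5.84 with PBS. Rgs2, a brake on G protein signalling, was at 17.6 to 52.6 CPM in lymph node, and 1257 CPM in lung replicate 1 against 444 to 556 CPM in the other 3 (4.48 ± 0.41). Rgs1, which dampens chemokine receptor signals and marks tissue-resident lymphocytes, was at 281 to 691 CPM in lymph node and 944 to 2960 CPM in lung (2.22 ± 0.38, adjusted p = 0.0023 in edgeR). Tgif1, a repressor of TGF-beta responses, was at 36.2 to 52.4 CPM against 260.4 to 427 CPM (3.19 ± 0.27), and Sgk1, a kinase induced by glucocorticoids and salt, at 91.5 to 128 CPM against 714 to 1720 CPM (3.43 ± 0.30). Coq10b, a mitochondrial coenzyme Q protein, and Hexim1, an inhibitor of transcription elongation, differed by 2.73 ± 0.25 and 3.6 ± 0.35. Of 16 tested TGF-beta genes, Tgif1 and Tgfb1 were called higher, the latter at 2.04 ± 0.42, against 3.97% of all tested genes. The count was 4 without lung replicate 1 or 4, and 6 without both libraries numbered 1. Vegfa, an angiogenic factor, was called at 2.65 ± 0.73 (adjusted p = 0.037) but overlapped, with 3.01 CPM in lung replicate 1, and its adjusted p with the library number as a block was 0.063 in edgeR.

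**Figure D2:**
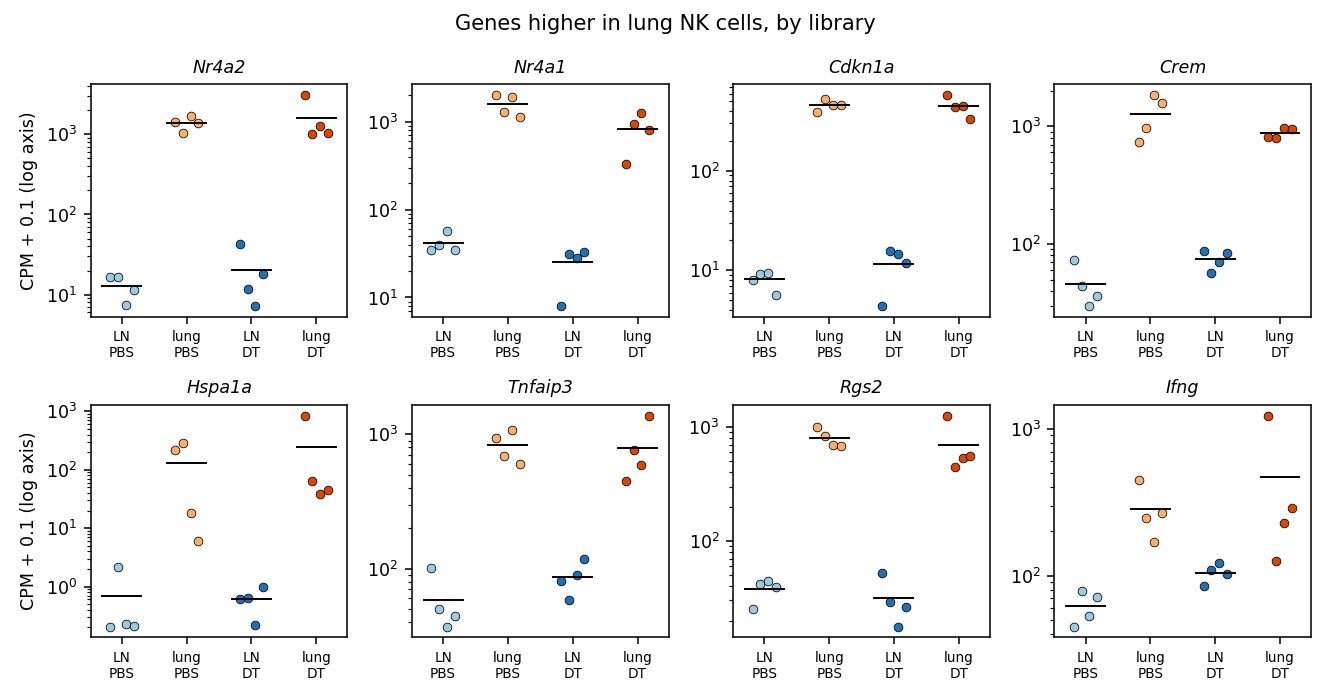
Level of 8 genes (CPM plus 0.1, log axis) in each of the 16 libraries, grouped by tissue (LN, lymph node) and treatment, with a line at the group mean. In Nr4a2, Nr4a1, Cdkn1a, Crem, Hspa1a, Tnfaip3 and Rgs2 all lung libraries lie above all lymph node libraries with both treatments, and lung DT replicate 1 is the highest point for Nr4a2, Rgs2, Hspa1a and Ifng.

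Heat shock genes encode chaperones that refold proteins after thermal and other proteotoxic stress. Of 15 tested members, 9 were called higher in lung with DT, against 3.97% of all tested genes, and 0 were called lower. Of the 9, 6 were also called with PBS. The list medians were 1.73 and 1.58. Hspa1a, an inducible HSP70, was at 0.514, 0.528, 0.120 and 0.881 CPM in lymph node and 842, 64.0, 37.9 and 45.6 CPM in lung, with no overlap and with lung replicate 1 far above the other 3. Its difference was 8.86 ± 1.57 (edgeR adjusted p = 0.0029) with all libraries, 6.51 (adjusted p = 0.019) without both libraries numbered 1, and 7.76 with PBS. Hspa1a and Hspa1b are near-identical copies, and reads shared between them may have been split or dropped by the counting. Dnajb1, an HSP40 cochaperone, was at 98.8 to 191 CPM against 407 to 1135 CPM (2.32 ± 0.45), and Dnajb4, of the same family, differed by 2.28 ± 0.33. The count of 9 fell to 5 without both libraries numbered 1, to 5 without lung replicate 1, or without lymph node replicate 2, and to 4 without lymph node replicate 3.

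Of 18 tested NF-kappaB genes, 6 were called higher in lung with DT (Tnfaip3, Nfkbia, Rel, Nfkbiz, Nfkbid and Icam1), against 3.97% of all tested genes, and 0 lower; 3 were called with only the 8 DT libraries in the fit; 4 of the 6 were called with PBS, and the list medians were 1.11 and 0.26. Tnfaip3, which encodes the inhibitor A20, was at 80.2, 58.2, 89.5 and 118.8 CPM in lymph node and 447, 764, 595 and 1380 CPM in lung (3.20 ± 0.40, adjusted p = 0.00017 in edgeR). Nfkbia, the inhibitor IkB-alpha, differed by 1.76 ± 0.26 and Rel, a subunit of the factor, by 1.86 ± 0.31, and in none of these 3 genes did lung overlap lymph node.

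Markers of early NK cells were lower in lung. Of 18 tested members of the list of immature NK markers, 13 were called lower in lung with DT and 0 higher, against 2.78% of all tested genes, and the same 13 were called lower with PBS. The list medians were -1.86 with DT and -1.99 with PBS. The count was 10 to 13 when any single library was left out, 13 without both DT libraries numbered 1, and 6 when only the 8 DT libraries entered the fit.

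Il7r (ENSMUSG00000003882, chromosome 15, 9506161 to 9529876), the receptor chain for IL-7, was at 501, 269.9, 312 and 481 CPM in lymph node and 30.9, 15.4, 12.9 and 15.7 CPM in lung. The groups were wide apart (-4.39 ± 0.38, edgeR adjusted p = 5.3e-06), and with PBS the difference was -3.63. Tcf7, which encodes TCF-1, the factor of early and memory-like lymphocytes, was at 67.7, 83.7, 71.6 and 159.9 CPM against 35.6, 21.0, 18.3 and 6.81 CPM. It did not overlap either (-2.23 ± 0.40, adjusted p = 0.0031), and was at -2.99 with PBS; with only the 8 DT libraries in the edgeR fit its adjusted p was 0.052. Cd27, a costimulatory receptor lost on maturation, was at 207 to 282 CPM in lymph node and 71.2 to 115 CPM in lung (-1.34 ± 0.26). Slamf6, a self-ligand receptor of the SLAM family, was at 109.5 to 218 CPM against 15.9 to 37.3 CPM (-2.70 ± 0.32). Gpr183, an oxysterol receptor that guides cells within lymphoid tissue, was lower by a smaller margin (-1.33 ± 0.36, adjusted p = 0.034), and its highest lung library lay close to its lowest lymph node library, 50.9 and 56.0 CPM; without lymph node replicate 2, 3 or 4, or lung replicate 2 or 4, it was not called. T cells also express Il7r, Tcf7, Cd27 and Ltb, and markers of T and B cells were measured beside these genes. All 9 tested T cell markers were below 0 with DT (median -0.85), with Trbc2 called, and their list summed to 1077, 628, 687 and 673 CPM in lymph node and 860.4, 260.0, 285.5 and 330.3 CPM in lung. The 14 B cell markers had a median of -2.10, with Ighm and Cd22 called lower, and sums of 1072 to 3312 CPM in lymph node and 253 to 5050 CPM in lung. The part of these cells in the result was not tested. Cd7, Cxcr3, Ly6e, Kit, Ctla2a and Crtam completed the called members with Ltb and Xcl1, given below.

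**Figure D3:**
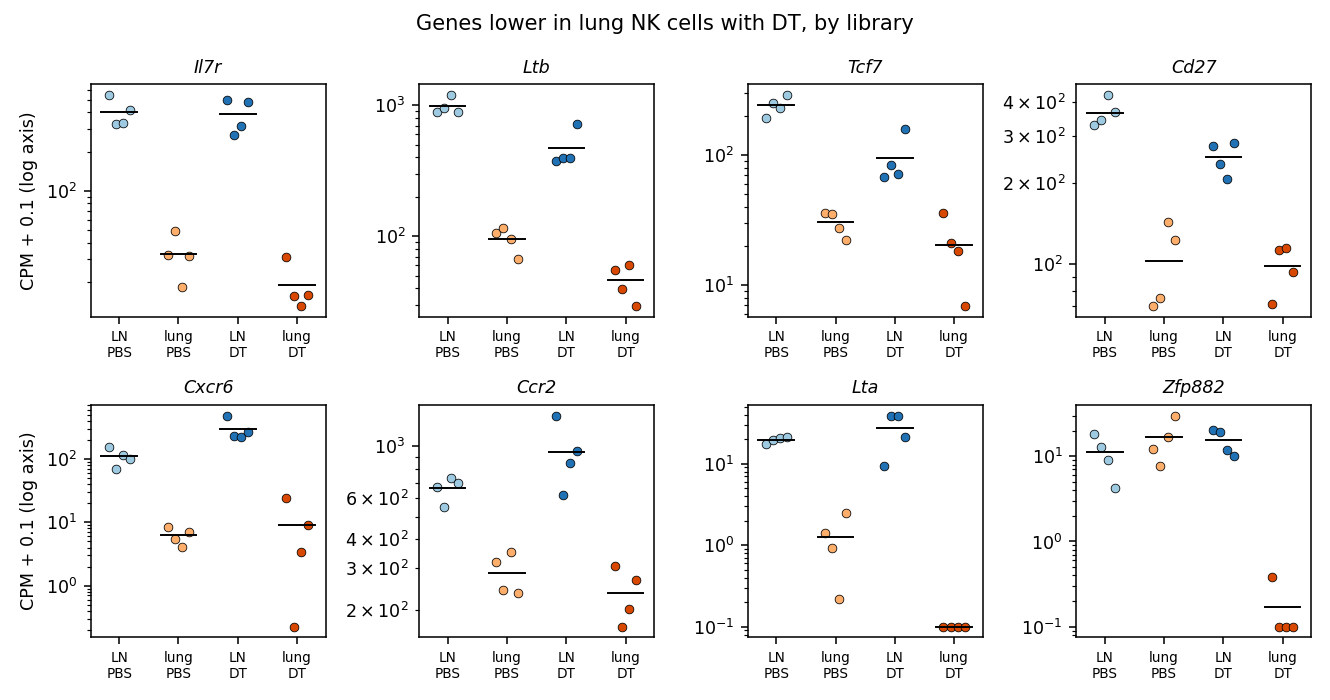
Level of 8 genes (CPM plus 0.1, log axis) in each of the 16 libraries, grouped by tissue (LN, lymph node) and treatment, with a line at the group mean. With DT all lung libraries lie below all lymph node libraries in each gene; for Zfp882 this is seen with DT and not with PBS, and Lta is at 0 counts in the 4 lung DT libraries.

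The opposite list, of mature NK markers, had 5 of 15 tested members called higher in lung with DT (Cma1, Klrg1, Irf8, Zeb2 and Itgam). Over all tested genes 3.97% were called higher with DT, and 0 members of the list were called lower. With PBS, 9 members were called higher, against 2.7% of all tested genes. The list median was 0.77 with DT and 1.56 with PBS. Klrg1, an inhibitory receptor for cadherins, was at 466, 348, 317 and 415 CPM in lymph node and 1591, 616, 588 and 953 CPM in lung. The libraries did not overlap (1.28 ± 0.30, adjusted p = 0.017 in edgeR), and the difference was 2.57 with PBS; the interaction was -1.30 at an unadjusted p of 0.0068, which did not pass adjustment. Cma1, a chymase transcribed in mature mouse NK cells, was at 266 to 556 CPM against 708 to 1786 CPM (1.54 ± 0.36), and Itgam, which encodes CD11b, at 39.8 to 86.7 CPM against 113 to 216.5 CPM (1.33 ± 0.37, adjusted p = 0.039). These calls rested on few libraries: of the 5, edgeR called 0 without lymph node replicate 3, 2 without lymph node replicate 2, 3 without lymph node replicate 4 and 0 with only the 8 DT libraries.

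Receptors for positioning differed gene by gene. Of 19 tested chemokine receptors, 2 were called higher in lung with DT (Cxcr4 and Ccrl2) and 5 lower (Ccr2, Cxcr6, Gpr15, Cxcr3 and Ccr10). Over all tested genes the shares were 3.97% higher and 2.78% lower. Cxcr6 (ENSMUSG00000048521, chromosome 9, 123806475 to 123811760), the CXCL16 receptor of liver-resident and ILC1-like cells, was at 481.6, 231, 219.8 and 263 CPM in lymph node and 24.0, 0.125, 3.32 and 9.04 CPM in lung. The groups did not overlap and lung varied widely (-5.04 ± 0.79, edgeR adjusted p = 0.0011); with PBS the difference was -4.14. Ccr2, the receptor for CCL2, was at 1355, 620.3, 849.5 and 960.3 CPM against 307, 169, 201 and 267 CPM (-2.01 ± 0.28), beside -1.20 with PBS. Gpr15, a receptor for homing to mucosa, had 542 counts over the 4 lymph node libraries and 2 over the 4 lung libraries, a ratio of 262 with a 95% exact interval of 72.3 to 2170 that covers counting error only. Cxcr4, the CXCL12 receptor, moved the other way, from 4.93 to 13.3 CPM in lymph node to 38.2 to 89.7 CPM in lung (2.77 ± 0.61, adjusted p = 0.011).

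Genes of lymph node entry and exit gave 2 calls in each direction among 18 tested, beside 3.97% higher and 2.78% lower over all tested genes. The 2 lower calls were both lost without lymph node DT replicate 2, 3 or 4 or lung DT replicate 2, and 1 was lost without any one of lymph node PBS replicates 1 to 4, lung PBS replicates 1 to 3 and lung DT replicates 1, 3 and 4. The higher calls numbered 1 without lymph node DT replicate 2 or 3 and 4 with the library number as a block. Cd44, a hyaluronan receptor, was called higher (1.05 ± 0.27, adjusted p = 0.024 in edgeR). Ccr7, a chemokine receptor of lymph node entry, was at 14.9 to 26.3 CPM and 0.144 to 14.4 CPM and did not pass (-1.47 ± 0.69, adjusted p = 0.23). S1pr1, the receptor for exit along sphingosine-1-phosphate, was called with PBS at -2.13 and with DT was at 19.8 to 39.4 CPM in lymph node and 11 to 42.3 CPM in lung, overlapping groups (-0.55 ± 0.36, adjusted p = 0.43). The residency list held calls in both directions with DT, Rgs1 and Rgs2 higher and Cxcr6, Il2ra, Inpp4b and Podnl1 lower, of 16 tested, with 2 lower calls without lymph node replicate 3. Cd69, the antagonist of S1PR1, was at 390, 141, 155.9 and 153 CPM in lymph node and 1721, 205, 216 and 527 CPM in lung (1.67 ± 0.54, adjusted p = 0.075).

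Among 18 tested cytokine and chemokine genes, 3 were called higher in lung with DT (Ccl9, Tgfb1 and Ifng) and 6 lower (Ltb, Lta, Xcl1, Il16, Il2 and Csf2). Over all tested genes, 3.97% were called higher and 2.78% lower. Ltb, the membrane anchor of lymphotoxin, which lymph node stroma needs, was at 373, 397, 394 and 726 CPM in lymph node and 54.9, 39.6, 60.4 and 29.2 CPM in lung (-3.36 ± 0.31, adjusted p = 5.3e-06 in edgeR). The difference was also -3.36 with PBS. Lta, the soluble lymphotoxin and the neighbour of Ltb on chromosome 17, was at 9.25, 38.7, 38.5 and 21.1 CPM in lymph node and had 0 counts in all 4 lung libraries. Against a floor of 3 counts over the lung group, Lta was at least 277-fold lower in lung. Xcl1, a chemokine for cross-presenting dendritic cells, was at 186 to 280 CPM against 31.6 to 66.0 CPM (-2.15 ± 0.30), beside -2.53 with PBS, and Il16, a chemoattractant, fell by 1.37. Ifng, the signature cytokine of NK cells, was at 85.2, 108, 122 and 102 CPM in lymph node and 1229, 126, 227.5 and 287 CPM in lung. The groups did not overlap, with lung replicate 1 far above the rest (2.16 ± 0.53, adjusted p = 0.019); without both libraries numbered 1 the difference was 0.93 with an adjusted p of 0.098, and with the library number as a block the adjusted p was 0.078. Ccl4, an inflammatory chemokine, was at 464 to 548 CPM against 786 to 1076 CPM with DT (0.92 ± 0.30, adjusted p = 0.076) and was called with PBS at 2.76. With lymph node at 232 CPM and lung at 1574 CPM in the PBS means, the interaction was -1.84 at an unadjusted p of 0.00045 in edgeR, which did not pass adjustment.

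The cytotoxic genes gave 1 higher call of 16 with DT, against 3.97% of all tested genes, and 4 higher and 1 lower with PBS. The call was Srgn, the proteoglycan of the granule core, at 0.90 ± 0.23 (edgeR adjusted p = 0.023). With DT, 0 were called higher without lymph node replicate 2 or 3 or lung replicate 3, 2 without lung PBS replicate 2, and 4 with the library number as a block. Gzmb (ENSMUSG00000015437, chromosome 14, 56258856 to 56262260), granzyme B, was at 1493, 1280, 1466 and 2539 CPM in lymph node and 2121, 1360, 1312 and 2425 CPM in lung with DT, and these ranges overlapped throughout (0.09 ± 0.31, adjusted p = 0.91). With PBS its means were 680.5 CPM in lymph node and 2377 CPM in lung (1.80, adjusted p = 0.0035), and the interaction was -1.71 with an unadjusted p of 0.0012 and an adjusted p of 0.58. Gzma, granzyme A, had means of 6282 CPM in lymph node and 17840 CPM in lung with PBS, and with DT ranges of 13160 to 36960 and 10700 to 38720 CPM (-0.14 ± 0.43). Prf1, perforin, differed by -0.01 ± 0.52 with DT. Serpinb9, an inhibitor of granzyme B, was at 1089 to 2531 CPM against 2609 to 5947 CPM (1.22 ± 0.38, adjusted p = 0.062), and called with PBS at 2.43.

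Receptors and identity genes of NK cells had few calls with DT, beside 3.97% higher and 2.78% lower over all tested genes. Of 15 identity genes, only Ncr1 was called (-0.89 ± 0.25, adjusted p = 0.038 in edgeR); it encodes a sort marker and was called in 14 of 28 alternatives. Itga2, which carries the DX5 epitope, was at 62.9 to 134 CPM and 64.6 to 136 CPM (0.07 ± 0.31). Of 11 Ly49 genes, Klra2 was called, at 1.87 to 3.26 CPM in lymph node and 28.6, 32.1, 56.6 and 6.81 CPM in lung (3.53 ± 0.60). The FVB/N reads were counted on a reference built from another strain, and Ly49 paralogs are near-identical, so counts of single Ly49 genes are uncertain. Klrb1f, an NKR-P1 receptor, was lower in lung (-1.92 ± 0.40), as was Cd160, a receptor for HVEM and MHC class I (-2.39 ± 0.26), at 204 to 339 CPM against 42.5 to 76.8 CPM. Of 23 cytokine receptors, Il7r and Il2ra were called, both lower; Il2ra, the high-affinity chain for IL-2, was at 53.6, 25.9, 28.5 and 40.2 CPM in lymph node and 10.0, 3.38, 6.51 and 4.98 CPM in lung (-2.57 ± 0.51, adjusted p = 0.0064), beside -2.02 with PBS, where its means were 7.84 and 1.99 CPM.

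**Figure D4:**
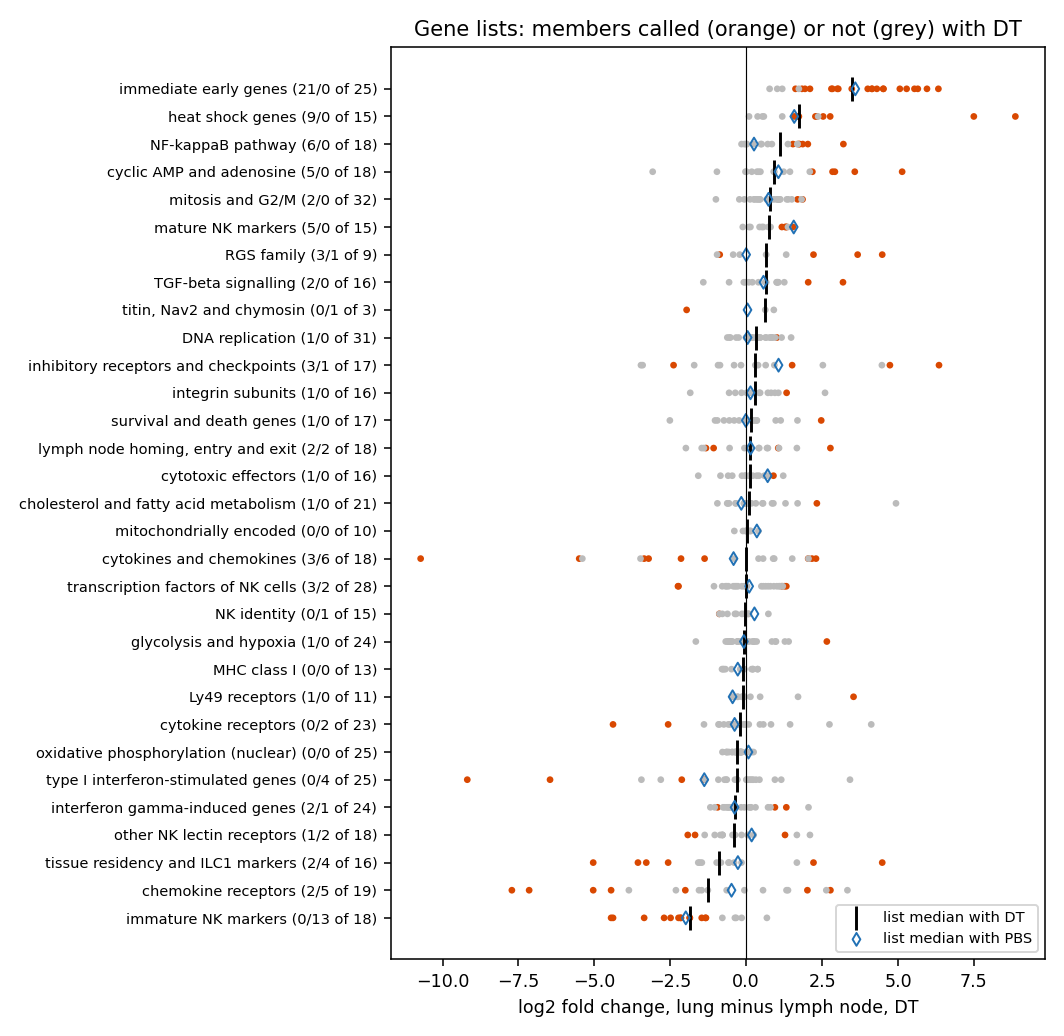
Log2 fold change between lung and lymph node with DT for the tested members of 31 gene lists, 1 point per gene, orange where edgeR called it and grey where not; the black bar is the list median with DT and the blue diamond that with PBS. Numbers beside each name give members called higher, called lower and tested, from 21/0 of 25 for immediate early genes to 0/13 of 18 for immature NK markers.

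Interferon, cell cycle and metabolic lists had few calls. Of 25 type I interferon-stimulated genes, 4 were called lower in lung with DT (Ifit1, Ifi44, Rtp4 and Usp18) and 0 higher. Over all tested genes 2.78% were called lower, and the list median was -0.31 with DT beside -1.38 with PBS. Ifit1, an inhibitor of foreign RNA translation, was at 12.9, 16.1, 12 and 11.1 CPM in lymph node and 0, 0.376, 0.139 and 0 CPM in lung, without overlap. Ifi44 had 281 counts in lymph node and 0 in lung, at least 90.6-fold lower. Of 32 mitosis genes, Mki67 and Kif23 were called higher with DT, beside 3.97% of all tested genes, and 0 with PBS. The list medians were close, 0.79 with DT and 0.73 with PBS. Mki67 was at 68.5, 43.6, 50.9 and 27.2 CPM in lymph node and 245, 133, 149.8 and 86.5 CPM in lung (1.69 ± 0.40, adjusted p = 0.016 in edgeR). It was not called without lymph node replicate 2 or 4, its adjusted p reaching 0.058 over the alternatives. Of the 2 mitosis calls, 1 was left without lymph node replicate 2 or 3 or lung replicate 3, and 0 without lymph node replicate 4. With PBS the means of Mki67 were 12.4 and 20.5 CPM. Of 25 nuclear oxidative phosphorylation genes, 10 mitochondrially encoded genes and 13 MHC class I genes, 0 were called with DT by edgeR or DESeq2. In the first 2 lists 0 genes had an unadjusted p under 0.05, and limma-voom called 0, while in the MHC class I list 2 had such a p and limma-voom called 2.

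Genes called with DT alone included Gsto1, a glutathione transferase, at 11.4 to 13.4 CPM in lymph node and 88.9, 55.9, 53.3 and 32.8 CPM in lung (2.24 ± 0.33, edgeR adjusted p = 0.00056). Its PBS means were 30.4 CPM in lymph node and 34.3 CPM in lung. The interaction of Gsto1 was 2.06 and did not pass (edgeR unadjusted p = 0.00023, adjusted p = 0.32). Mknk2, a kinase of translation initiation, was at 107 to 174 CPM against 401 to 532 CPM (1.78 ± 0.26), and Oraov1, now also known as Lto1, at 74.1 to 106.8 CPM against 33.7 to 40.3 CPM (-1.34 ± 0.23), beside -0.40 with PBS. Zfp882 (ENSMUSG00000089857, chromosome 8, 71908608 to 71916354), a zinc finger gene, was at 20.2, 19.4, 11.9 and 10.0 CPM in lymph node and 0.287, 0, 0 and 0 CPM in lung with DT. It had 455 counts over the 4 lymph node libraries and 2 over the 4 lung libraries, a ratio of 220 (95% exact interval 60.6 to 1820, counting error only), and with PBS its means were 11.1 and 16.6 CPM. Its interaction was -8.10 (adjusted p = 0.022 in edgeR). The call was lost in 9 of the 16 fits that left out 1 library (without lymph node DT replicate 1 or 2, lymph node PBS 2, 3 or 4, lung DT 2 or 4, or lung PBS 3 or 4; adjusted p up to 0.10), in limma-voom (0.069) and with the library number as a block (0.13). Of the 310 genes called lower with DT alone, 103 had a mean under 10 CPM in lymph node and 60 had 0 counts in all 4 lung libraries, against 12 and 10 of the 76 called lower with both treatments. Genes with any count numbered 15767 to 19196 in the lymph node DT libraries and 14032 to 16949 in the lung DT libraries; their part in these calls was not tested.

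Markers of other cells moved with tissue, and in bulk libraries fewer cells of a type and less RNA per cell cannot be told apart. The summed level of 9 alveolar macrophage markers was 11.1, 10.2, 6.98 and 5.28 CPM in lymph node and 1349, 7066, 2197 and 159 CPM in lung with DT, and 26.3 to 196.5 CPM in lung with PBS. Chil3, a chitinase-like protein of those cells, made most of the lung sum with DT. Of 8 tested markers, 6 were called higher, against 3.97% of all tested genes. Marco, the highest of these markers in lymph node, went the other way and was not called. It was at 2.06 to 8.06 CPM in lymph node and 0 to 0.554 CPM in lung with DT. The neutrophil sum with DT was 0.660 to 5.78 CPM against 8.78 to 443 CPM, led in lung by Trem1, S100a8 and S100a9. Summed over the libraries, Ly6g had 0 counts in lymph node and 2 in lung, and Ngp 0 and 38. Mmp9 went the other way, with 13 counts in lymph node and 0 in lung, and Camp was at 0 in both tissues. The plasma cell sum ran the other way, 476, 785, 1015 and 282 CPM in lymph node with DT, led by Ighg1 and Jchain, against 70.2 to 108 CPM in lung. It was 38.3 to 54.0 CPM in lymph node with PBS. Prdm1, also on the list of mature NK markers, made most of the lung DT and lymph node PBS sums. Its means with DT were 79.5 CPM in lung and 53.7 CPM in lymph node. Lung replicate 4 had the lowest macrophage and neutrophil sums of the lung DT libraries. Its alveolar macrophage and neutrophil sums were still above those of every lymph node DT library, and its monocyte and macrophage sum was below them. Ccr2, also on the list of chemokine receptors, made most of that sum in each of these libraries. It was at 1355, 620.3, 849.5 and 960.3 CPM of lymph node sums of 1497, 862.5, 1164 and 1146 CPM. In lung replicate 4 Ccr2 was at 266.7 of 470 CPM, so that sum does not rank the other monocyte and macrophage markers. In lung replicate 4 Nr4a2 was at 1025 CPM, Cdkn1a at 332 CPM and Il7r at 15.7 CPM, all beyond every lymph node DT library. The part of other cells in these differences was not tested. The genes Klra2, Pilra, Tmem51 and Fgd4 were lowest in that same library, at 6.81, 0.655, 1.57 and 2.75 CPM, against at least 28.6, 22.3, 12.9 and 14.5 CPM in the other 3, and the part of other cells in their calls was not tested.

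**Figure D5:**
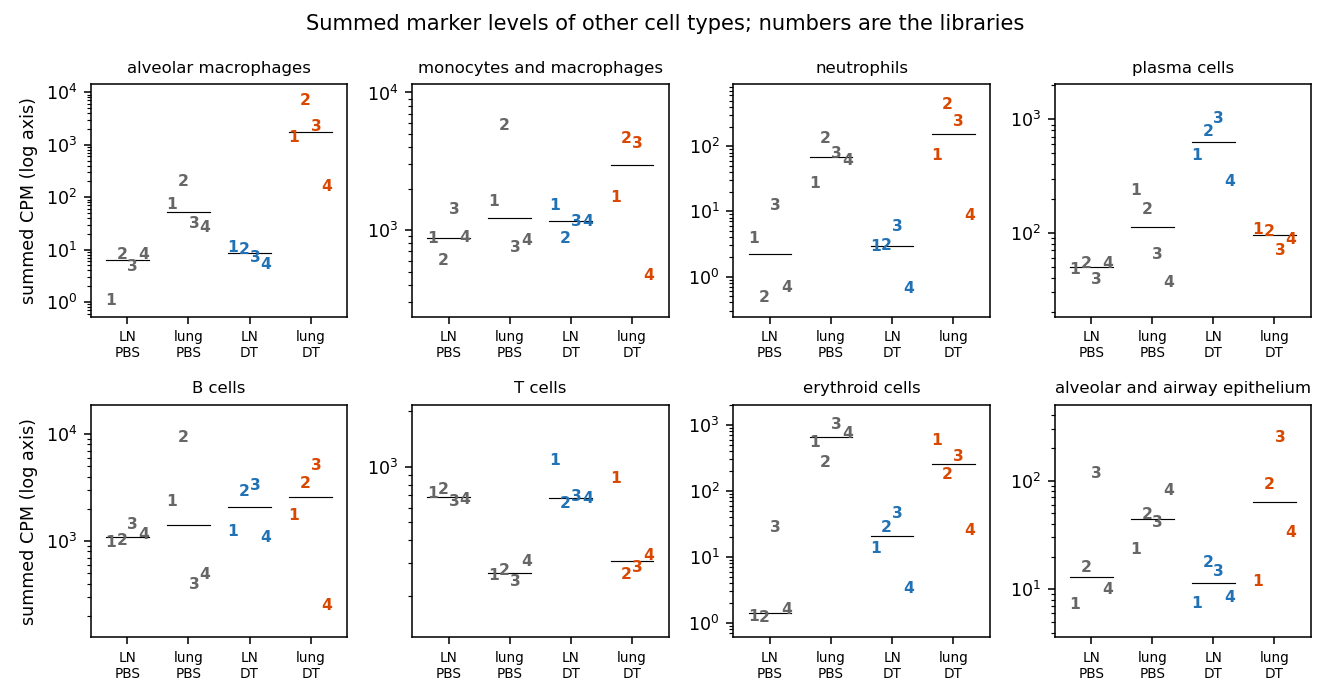
Summed level of marker genes of 8 other cell types (CPM, log axis) in each library, drawn as its replicate number, by tissue (LN, lymph node) and treatment; lines are group medians. With DT the alveolar macrophage sum is 159 to 7066 CPM in lung and 5.28 to 11.1 CPM in lymph node, lung replicate 4 being lowest among lung, and the plasma cell sum is higher in lymph node.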

How the data were processed

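The authors deposited 1 table of raw read counts per gene for 16 NK cell libraries. Per the submitters' processing notes, HISAT2, HTSeq and the build GRCm38 were used; no source used here gives their versions, filters or strand setting. Gene symbols and coordinates are those in the deposited table, where 676 of the 678 symbols of the lists were found. From these counts, edgeR 4.0.16 in R 4.3.3 was run with TMM scaling, filterByExpr by group (minimum count 10, minimum total 15) and robust quasi-likelihood tests, 2-sided, on 16 libraries in 4 group means. Of 49671 genes, 13940 were tested, with Benjamini-Hochberg adjustment over all of them and calls at 0.05. SEs are the absolute log2 fold change divided by the square root of F.

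Members, lists and the rule for named genes were chosen with earlier results of these data known. The rule took called genes whose tissues did not overlap and whose higher group averaged 10 CPM or more, at most 12 per direction by p, genes called in 1 or both treatments or by interaction, 3 per list, and a set of NK genes. Per1, Zeb2, Chil3, Marco, Ighg1, Jchain, Prdm1, Mmp9, Malat1 and the further called list members given by name were chosen after their values were seen. The 31 NK lists and 17 lists of other cells are described by counts and medians.

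Deviations of same-numbered lung and lymph node libraries correlated at 0.412, 0.194, 0.230 and 0.184 with DT and at -0.0224, 0.191, -0.0303 and -0.00119 with PBS. Each DT pair was over 0.1, the limit for treating numbers as pairs, and this comes from the data and not from the labels. Among the PBS libraries only those numbered 2 passed this limit, so a block by number has no such basis there. Lymph node DT replicate 2 correlated more with lung replicate 3 (0.229) than with its own number, and replicate 3 with lung replicate 2 at 0.181. No pair of replicates agreed within sampling noise. Promoter windows are from RefSeq. Alternatives included DESeq2 1.42.0, limma 3.58.1 (voom with quality weights), other scalings and filters, a covariate, blocks and leaving out libraries.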

Additional observations from a re-analysis of the deposited data

Results flagged for a closer look

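In groups of 4, a library was set apart where its gap to the nearest of the others, as a share of the group's range, exceeded Dixon's 95% critical value. Chance gives this in about 1 of 20 groups, and 96 groups were examined. Lung DT replicate 1 was the high library for Malat1 (17160 CPM against 6813 to 8476 CPM in the other 3), Nr4a2 (3093 against 1008 to 1277 CPM), Rgs2 (1257 against 444 to 556 CPM), Hspa1a (842 against 37.9 to 64.0 CPM), Il7r (30.9 against 12.9 to 15.7 CPM), Gzma (38720 against 10700 to 13530 CPM) and Ifng (1229 against 126 to 287 CPM). It was also high for the summed T cell markers, at 860.4 CPM against 260.0 to 330.3 CPM. It held the only counts of Gpr15 (0.287 CPM) and Zfp882 (0.287 CPM) in the lung DT group. Lung DT replicate 3 was high for Fos (619 against 354 to 396 CPM).

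Lymph node DT replicate 1 was high for Cxcr6 (482 against 220 to 263 CPM) and for the summed T cell markers (1077 against 628 to 687 CPM). Lymph node DT replicate 4 was high for Ltb (726 against 373 to 397 CPM) and Gzmb (2539 against 1280 to 1493 CPM), and low for S1pr1 (19.8 against 37.2 to 39.4 CPM). The tissue difference of Zfp882 differed between DT and PBS by -8.10 on the log2 scale (edgeR interaction, adjusted p = 0.022), lower in lung in the 4 DT libraries and with overlapping groups with PBS. That call was lost in 9 of 16 fits that left out 1 library, with the library number as a block and in limma-voom.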

How the results depend on the processing

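No call of the named genes reversed. Of 81 named genes called with DT, 53 stayed called in all 28 alternatives run and 28 lost the call in 1 or more. Counts are given as higher and lower in lung with DT, then with PBS, then called alike with both. With the replicate number as a block within treatment they were 701 and 720, 585 and 264, 383 and 163, and the interaction called 0. The labels do not state that same-numbered libraries are pairs. Same-numbered PBS libraries correlated at -0.0224, 0.191, -0.0303 and -0.00119, which gives little ground for this block with PBS. The block across groups left 0 interaction calls and no other count moved by over 1.5 times. DESeq2 called 1027 and 706, 779 and 400, 509 and 201, and 1 and 18 by interaction. Limma-voom called 1012 and 792, 1241 and 1055, 605 and 408, and 0 by interaction. With only the 8 libraries of a treatment they were 225 and 97, 828 and 597, 164 and 40. Without both DT libraries numbered 1 they were 719 and 671, 902 and 460, 467 and 230. With total counts alone, PBS had 229 lower and 129 were lower with both; a mean of at least 5 CPM left 247 lower with DT. Leaving out single libraries gave 276 to 851 higher and 195 to 703 lower with DT, 206 to 675 and 56 to 317 with PBS, 151 to 403 and 38 to 173 with both, and 0 to 3 lower by interaction. The libraries that moved a PBS count by over 1.5 times were lymph node PBS 1 (224 and 68), 3 (234 and 66) and 4 (206 and 62), lung PBS 1 to 4 (74, 64, 56 and 77 lower) and lung DT 1 (675 and 317). Those that moved the count called with both were lung DT 1 (403 and 173), lymph node DT 2 (46 lower) and 3 (171 and 42), lymph node PBS 1 (44 lower), 3 (44 lower) and 4 (151 and 42), and lung PBS 1, 2 and 3 (49, 43 and 38 lower). Where the cause of a shift is not the number of samples or genes, the cause was not tested. Fold changes of genes with few counts in lung are uncertain, and the part of depth in them was not tested.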
